A study of Mus musculus with 4 samples.

Results

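The epidermal T cell genes described here are 10 genes of the T cell receptor complex and of receptors that T cells of the mouse epidermis carry: Cd3g, Cd3d, Cd3e, Cd247, Trdv4, Klrd1, Il2rb, Nkg7, Fcer1g and Ptprc. They were found by symbol, as 10 of the 45803 gene symbols in the table, with the values of all transcripts of a symbol added up. They were chosen by name with measured values of this knockout comparison in view, so their difference between genotypes is given as a description and carries no test.

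The study measured RNA from the epidermis of newborn mice, labelled as epidermal keratinocytes, in 4 sequenced libraries. The cKO group holds 2 libraries of genotype K14Cre, Mettl14F/F, in which both alleles of Mettl14, a subunit of the enzyme that writes N6-methyladenosine on RNA, are floxed. The control group holds 2 libraries of genotype K14Cre, Mettl14F/+, with 1 floxed and 1 wild-type allele. Both groups carry the same Cre, were taken at postnatal day 0 and had no treatment. The keratin 14 promoter that drives Cre is active in basal keratinocytes and is not a promoter of T cells. In which cells the floxed alleles were recombined was not measured. No label says which animals the libraries came from, so their spread may be technical.

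Mouse epidermis holds a resident population of γδ T cells with dendritic shape, which enter the skin from the fetal thymus and carry a nearly invariant receptor. That receptor reaches the surface with CD3 chains, and CD3 chains and CD247 pass its signal into the cell. The same cells carry receptors shared with natural killer cells, and they depend on interleukin 15 through the chain encoded by Il2rb. CD45, the product of Ptprc, is a phosphatase on all leukocytes, so Ptprc and Fcer1g are also transcribed in Langerhans cells and other myeloid cells.

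The receptor that names these cells is read from a single variable segment of the delta chain, and its germline letters are shown because Trdv4 was 1 of only 3 variable segments that reached 1 FPKM, fragments per kilobase of transcript scaled to sequencing depth. The stretch is the coding part of the second of its exons on the plus strand, chr14:54075217-54075515 of GRCm38, from the GENCODE gene models. Capitals mark the last in-frame cysteine codon, at which the third hypervariable loop begins; 12 germline coding bases follow it.
Trdv4: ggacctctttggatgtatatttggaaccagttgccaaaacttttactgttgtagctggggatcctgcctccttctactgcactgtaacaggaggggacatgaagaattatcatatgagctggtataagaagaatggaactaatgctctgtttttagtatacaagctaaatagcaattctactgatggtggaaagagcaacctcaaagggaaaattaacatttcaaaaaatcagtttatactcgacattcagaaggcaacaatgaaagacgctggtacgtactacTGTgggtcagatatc

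Cd3g, Cd3d and Cd3e lie side by side on chromosome 9. Their promoters are shown because all 3 encode CD3 chains and their RNA was lower together. Nkg7 is shown beside them because its window was the only one of the members to hold the RUNX letters. The starts of Cd3g and Cd3d are 1355 bases apart and point away from each other. Each sequence is the 250 bases before the RefSeq start in GRCm38.p6, written 5′ to 3′ on the gene's own strand. Cd3g covers chr9:44980432-44980681 on the minus strand, Cd3d chr9:44981536-44981785 on the plus strand, Cd3e chr9:45009612-45009861 on the minus strand and Nkg7 chr7:43436888-43437137 on the plus strand. Capitals mark 3 sets of letters searched on both strands. AGGAAG is the core of the ETS motif and reads CTTCCT on the other strand. AGATAA is the core of the GATA motif and reads TTATCT on the other strand. TGTGGT is the core of the RUNX motif and reads ACCACA on the other strand. No 2 matches overlapped.
Cd3g: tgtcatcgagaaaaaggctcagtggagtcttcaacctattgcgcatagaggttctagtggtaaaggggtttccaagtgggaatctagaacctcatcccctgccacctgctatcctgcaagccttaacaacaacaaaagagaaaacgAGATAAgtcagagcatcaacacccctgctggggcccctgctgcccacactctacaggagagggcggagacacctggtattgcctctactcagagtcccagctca
Cd3d: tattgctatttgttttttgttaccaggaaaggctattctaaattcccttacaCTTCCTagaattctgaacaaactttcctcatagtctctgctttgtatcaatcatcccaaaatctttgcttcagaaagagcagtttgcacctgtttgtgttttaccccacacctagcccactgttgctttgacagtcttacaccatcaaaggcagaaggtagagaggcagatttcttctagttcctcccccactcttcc
Cd3e: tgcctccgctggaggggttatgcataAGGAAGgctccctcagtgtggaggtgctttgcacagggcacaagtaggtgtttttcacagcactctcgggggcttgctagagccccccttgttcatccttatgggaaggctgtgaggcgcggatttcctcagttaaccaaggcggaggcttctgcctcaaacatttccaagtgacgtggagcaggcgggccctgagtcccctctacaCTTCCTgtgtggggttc
Nkg7: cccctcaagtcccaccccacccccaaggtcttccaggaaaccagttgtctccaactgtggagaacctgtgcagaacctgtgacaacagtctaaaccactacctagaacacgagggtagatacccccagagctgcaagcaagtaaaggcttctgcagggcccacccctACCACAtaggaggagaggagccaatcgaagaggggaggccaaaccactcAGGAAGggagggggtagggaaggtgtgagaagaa

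The promoter table held 7 of the 10 genes. It had no entry for Trdv4, Klrd1 and Il2rb. On either strand, AGGAAG occurred in 6 of the 7 genes, against 29.5% of the 32851 promoter windows in the table, and Cd3g was the gene without it. The count is by gene and the share by window; Ptprc had 2 windows, so the 7 genes had 8, and both of its windows held the letters. AGATAA occurred in 2 of the 7, Cd3g and 1 of the 2 windows of Ptprc, against 9.99% of all windows. TGTGGT occurred in 1 of the 7, Nkg7, against 14% of all windows. These matches describe letters in the windows and no binding was measured.

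Mettl14 itself measured 5.89 and 3.79 FPKM in the cKO libraries, against 7.00 and 6.40 FPKM in the controls, so it was lower in cKO but still read there. The libraries held about 16963000 and 25786000 fragments in cKO and 17404000 and 23457000 in control. Across genes, which are not independent replicates, log2 levels correlated at 0.977 and 0.975 between a cKO and a control library of the same replicate number, and at 0.956 within cKO and 0.966 within control. Libraries thus resembled each other more by number than by genotype. Retained-intron transcripts took 4.01% and 2.28% of all FPKM in cKO and 4.66% and 2.83% in control. The part of depth, retained introns and numbering in the values of the 10 genes was not tested.

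All 10 genes were measured in all 4 libraries and all 10 passed the filter of at least 1 FPKM in at least 2 libraries. The RNA of every member was lower in both cKO libraries than in both control libraries. Across the 13817 genes tested, 16.6% had both cKO libraries below both control libraries and 16.2% had both above. The median log2(FPKM + 1) difference, cKO minus control, was -0.87 over the 10 genes and -0.03 over all genes tested. In limma's fit across all genes, 0% passed an adjusted p of 0.05 in either direction, and the smallest adjusted p of any gene was 0.456. Without adjustment, 232 genes were lower in cKO at a p under 0.05, or 1.68%, and 454 were higher. limma-voom on recovered fragments also left 0 genes past the threshold. Leaving out 1 library changed that count, to 71 genes without cKO 1, 9 without cKO 2, 14 without control 1 and 37 without control 2. In such bulk libraries, fewer T cells and less RNA per T cell cannot be told apart.

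**Figure D1:**
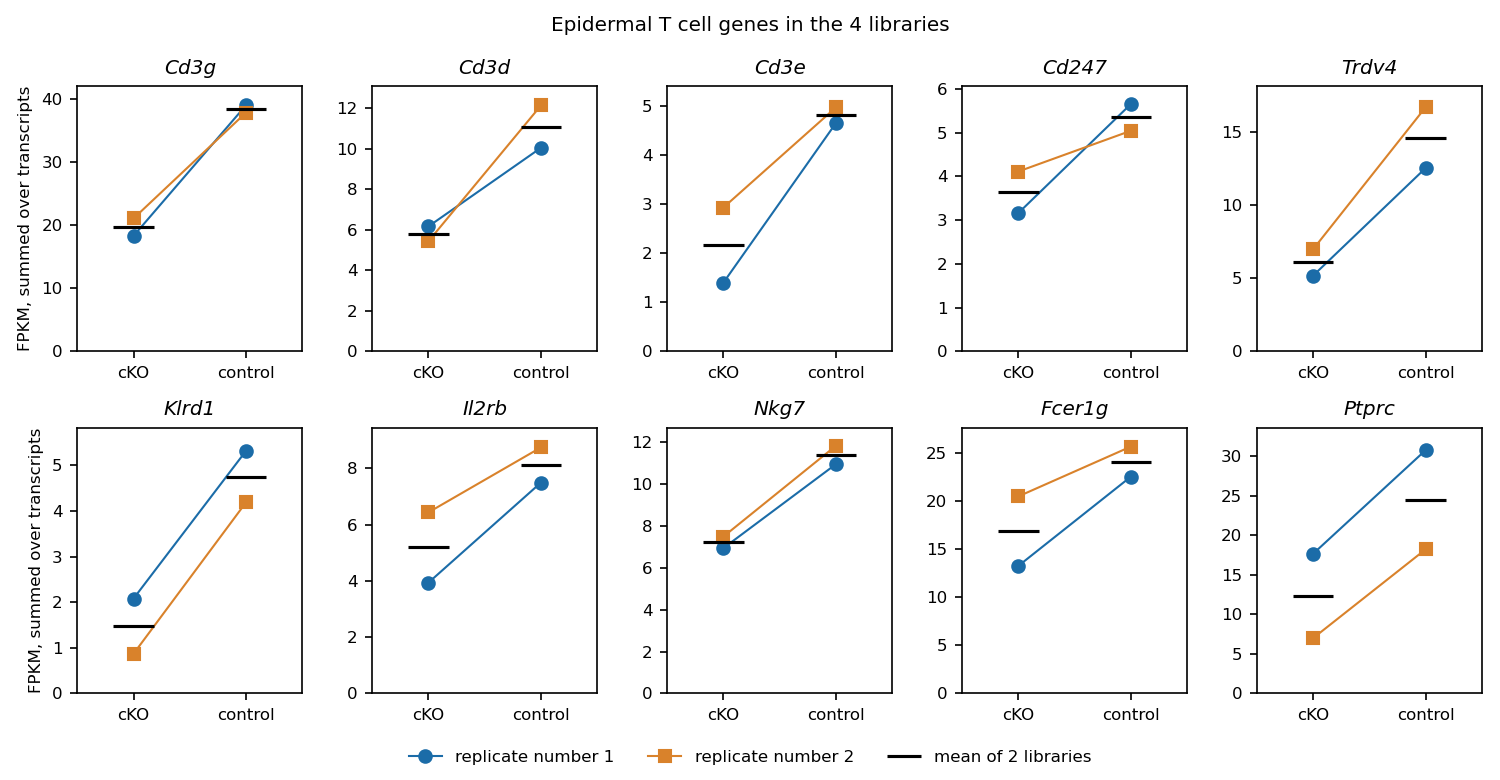
FPKM of each of the 10 genes, summed over its transcripts, in the 2 cKO libraries (left in each panel) and the 2 control libraries (right). Symbols and colours give the replicate number, lines join libraries that share a number without being known to share an animal, and black bars are group means. In every panel both cKO points lie below both control points. The widest spread within a group relative to its mean is that of Ptprc and Klrd1 in cKO.

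The 3 CD3 genes had cKO means between 0.45 and 0.523 times the control means. Cd3g, which encodes the gamma chain, lies at chr9:44969572-44980431 and measured 18.3 and 21.0 FPKM in the cKO libraries, against 39.0 and 37.8 FPKM in the controls. Both cKO values were far below both controls, and the libraries of each genotype lay close to each other. The means were 19.7 ± 1.95 FPKM in cKO and 38.4 ± 0.820 FPKM in control (SD, n = 2 each), a ratio of 0.512 and a log2 difference of -0.93 (limma standard error 0.2). These values rest on about 317 and 553 fragments in cKO and 689 and 907 in control, recovered from the size of 1 fragment in each library.

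Cd3d, which encodes the delta chain, lies beside it at chr9:44981786-44987339 and measured 6.17 and 5.44 FPKM in cKO, against 10.1 and 12.1 FPKM in control. The groups did not overlap, and the order of the numbered libraries differed between them, with library 1 higher in cKO and library 2 higher in control. The ratio of means was 0.523 and the log2 difference -0.83 (standard error 0.22). Cd3e, which encodes the epsilon chain that pairs with both others, lies at chr9:44998740-45009627 and measured 1.40 and 2.93 FPKM in cKO, against 4.65 and 4.97 FPKM in control. The cKO libraries differed from each other by more than the controls did, and cKO 1 was the lowest. Its log2 difference was -0.92 (standard error 0.30), and it ranged from -1.28 without cKO 2 to -0.56 without cKO 1. About 35 and 110 fragments in cKO and 118 and 170 in control stand behind it, the fewest of the 3 CD3 genes, and it overlaps the predicted genes Gm48719 and Gm48720.

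Cd247, whose zeta chain carries most of the signalling motifs of the complex, lies on chromosome 1 at chr1:165788681-165877277. It measured 3.16 and 4.11 FPKM in cKO, against 5.65 and 5.04 FPKM in control. The groups did not overlap, but their nearest libraries were closer than for the CD3 genes. In cKO the mean was 0.680 times that in control, with a log2 difference of -0.46 (standard error 0.23), the smallest of the 10. Its largest transcript by level, Cd247-201, measured 2.25 and 3.34 FPKM in cKO and 4.15 and 4.42 FPKM in control. Added together, the 3 CD3 genes and Cd247 reached 29.0 and 33.5 FPKM in cKO, against 59.3 and 59.95 FPKM in control. The summed level varied little within either genotype. Cd247 overlaps Pou2f1 and several predicted genes, whose fragments could not be told from its own without strand.

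Trdv4, the delta chain variable segment whose letters are printed above, lies at chr14:54074905-54075515. It measured 5.2 and 7.01 FPKM in cKO, against 12.6 and 16.7 FPKM in control. Library 2 was the higher in both groups, and the higher cKO value was below the lower control value. The cKO mean was 0.417 times the control mean, with a log2 difference of -1.14 (standard error 0.25). Within replicate number 1 the difference was -1.13 and within number 2 it was -1.15. The value rests on about 39 and 80 fragments in cKO and 97 and 174 in control. Gm30275 overlaps it on the other strand, and a strand setting for the counting is not given in the sources used here.

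Few variable segments were read at all. Of 142 T cell receptor variable genes in the table, 125 were listed at 0 in all 4 libraries and 3 reached 1 FPKM, namely Trdv4, Trgv5 and Trgv2. Trgv5, the gamma chain segment of the epidermal receptor, measured 3.42 and 1.60 FPKM in cKO, against 3.04 and 4.26 FPKM in control. These groups overlapped. Trac, the alpha chain constant gene, lay between 0 and 0.06 FPKM in cKO and between 0.09 and 0.18 FPKM in control, so a transcript that αβ T cells require was close to 0 throughout. Cd8a reached at most 0.18 FPKM in cKO and 0.29 FPKM in control, and Cd4 measured 0.85 and 0.80 FPKM in cKO and 1.19 and 0.72 FPKM in control. The beta chain constant gene Trbc2 stood above Trdc in all 4 libraries, with values given below. Receptor segments alone therefore do not settle which T cells were read.

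Among the receptors shared with natural killer cells, Klrd1 had the lowest ratio of the 10. It encodes CD94, which pairs with NKG2 proteins to bind a nonclassical MHC molecule, and lies at chr6:129591782-129598775. It measured 2.08 and 0.87 FPKM in cKO, against 5.32 and 4.19 FPKM in control. Library 2 was the lower in both groups, and both cKO values were below both controls. The ratio of means was 0.310 and the log2 difference -1.26 (standard error 0.32). With about 31 and 18 fragments in cKO and 81 and 86 in control, it had the thinnest reads of the list. It ranged from -1.62 to -0.90 as 1 library was left out, and it measured -1.73 with a pseudocount of 0.1 in place of 1 and -1.92 with limma-voom.

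Nkg7, a membrane protein of cytotoxic granules, lies at chr7:43437073-43438249 and measured 6.94 and 7.49 FPKM in cKO, against 11.0 and 11.8 FPKM in control. The libraries of each group lay close together and far from the other group. Its ratio of means was 0.634 and its log2 difference -0.59 (standard error 0.20), with -0.59 within number 1 and -0.60 within number 2. Leaving out 1 library moved it only between -0.64 and -0.54, the narrowest range of the 10.

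Il2rb, the signalling chain shared by the receptors for interleukins 2 and 15, lies at chr15:78479256-78495271 and measured 3.94 and 6.44 FPKM in cKO, against 7.50 and 8.75 FPKM in control. Library 2 was the higher in both groups and the gap between cKO 2 and control 1 was small. On average cKO reached 0.639 times the control level, with a log2 difference of -0.59 (standard error 0.27), which ranged from -0.88 without cKO 2 to -0.29 without cKO 1. Its depth was among the greatest of the list, with about 280 and 696 fragments in cKO and 547 and 857 in control.

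Fcer1g, the signalling adaptor of Fc receptors, which mast cells, macrophages and Langerhans cells also use, lies at chr1:171229572-171234365. It measured 13.3 and 20.5 FPKM in cKO, against 22.5 and 25.7 FPKM in control. Library 2 was again the higher in both groups, and cKO 2 lay just below control 1. The ratio of means was 0.700, the highest of the 10, and the log2 difference was -0.52 (standard error 0.26). Without cKO 1 it was -0.22, and without cKO 2 it was -0.81.

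Ptprc, the CD45 gene, lies at chr1:138062861-138175708 and measured 17.7 and 7.00 FPKM in cKO, against 30.8 and 18.2 FPKM in control. Library 1 was the higher in both groups, the reverse of Fcer1g and Il2rb, and cKO 1 lay just below control 2. The ratio of means was 0.504 and the log2 difference -1.02 (standard error 0.46, the largest of the 10). It was -1.63 without cKO 1 and -0.41 without cKO 2. It had the most fragments of the 10 genes in every library except cKO 2, at about 1120 and 616 in cKO and 1914 and 1541 in control. It overlaps the gene A130071D04Rik, so a part of its fragments is uncertain.

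Ptprc also showed which of its spliced forms were read, since exons 4 to 6 encode the outer segments that are included or skipped in different leukocytes. Of the 3 full-length transcripts, Ptprc-203, which skips exons 4 to 6 and gives the shortest common protein form, measured 7.76 and 3.65 FPKM in cKO, against 13.3 and 8.96 FPKM in control. It made up 73.2% and 88% of the full-length transcripts in cKO, against 75.6% and 77% in control. Ptprc-207, which keeps exons 4 to 6 and is the form typical of B cells, measured 0.41 and 0 FPKM in cKO, against 1.72 and 0.84 FPKM in control. Its share was 3.87% and 0% in cKO and 9.77% and 7.22% in control. Ptprc-204, which skips exon 7 as well, held 22.9% and 12% in cKO and 14.6% and 15.8% in control. The skipped form was the main one in every library. The summed coding transcripts reached 13.5 and 5.54 FPKM in cKO, against 24.1 and 15.9 FPKM in control. The rest was in 8 retained-intron transcripts, at 23.5% and 20.9% of the Ptprc signal in cKO and 21.7% and 13.1% in control. How the authors divided fragments between overlapping transcripts is not given in the sources used here, so these shares are estimates.

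**Figure D2:**
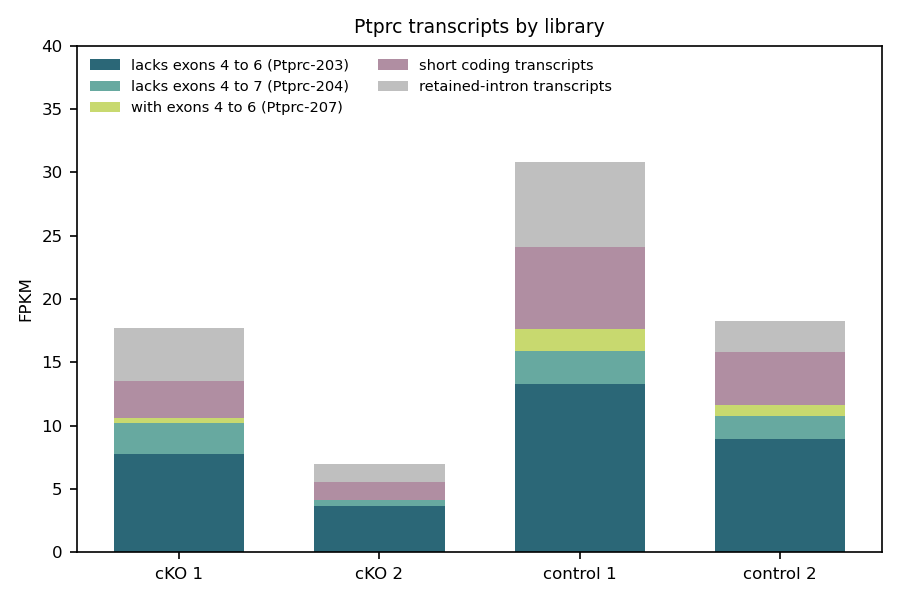
Stacked bars of Ptprc FPKM in each library, split by transcript class; colours from the bottom are Ptprc-203, Ptprc-204, Ptprc-207, short coding transcripts and retained-intron transcripts. The form that skips exons 4 to 6 is the largest full-length form in all 4 bars, and both cKO bars, at 17.7 and 7.00 FPKM, are lower than both control bars, at 30.8 and 18.2 FPKM.

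On the FPKM scale, which is per length, the order of mean levels in cKO was Cd3g (19.7), Fcer1g (16.9), Ptprc (12.3), Nkg7 (7.22), Trdv4 (6.11), Cd3d (5.81), Il2rb (5.19), Cd247 (3.64), Cd3e (2.17) and Klrd1 (1.48). In control it was Cd3g (38.4), Ptprc (24.5), Fcer1g (24.1), Trdv4 (14.7), Nkg7 (11.4), Cd3d (11.1), Il2rb (8.13), Cd247 (5.35), Cd3e (4.81) and Klrd1 (4.76). In cKO every pair of neighbours in the order overlapped between libraries except Cd247 and Cd3e. In control the neighbours that overlapped were Ptprc and Fcer1g, Nkg7 and Cd3d, and Cd3e and Klrd1. Cd3g stood above Cd3d and Cd3e in all 4 libraries.

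Set against Cd3g in the same library, the ratio of Cd3d was 0.338 and 0.259 in cKO and 0.258 and 0.321 in control, which overlapped. Trdv4 had ratios of 0.284 and 0.333 in cKO and 0.323 and 0.443 in control, which also overlapped. Nkg7 gave 0.380 and 0.356 in cKO compared with 0.281 and 0.313 in control, and Fcer1g 0.725 and 0.974 in cKO compared with 0.579 and 0.679 in control, so both stood higher relative to Cd3g in the cKO libraries. Cd247 also stood higher, at 0.173 and 0.195 in cKO and 0.145 and 0.133 in control. Klrd1 lay at 0.114 and 0.0413 in cKO and 0.137 and 0.111 in control, which overlapped. The ratios of Cd3e, Il2rb and Ptprc overlapped as well.

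All 10 genes were lower in cKO within replicate number 1 and within number 2, against 37.6% of all genes tested that were lower within both and 31.8% that were higher within both. For the 10 genes this followed from both cKO libraries lying below both control libraries, and it is not a separate observation. The median difference was -0.78 within number 1 and -0.71 within number 2. The 10 genes did not divide alike between the numbers. Cd3e differed by -1.24 within number 1 and -0.60 within number 2, and Klrd1 by -1.04 and -1.47. Ptprc, like Klrd1, had the larger difference within number 2, at -0.77 within number 1 and -1.27 within number 2.

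**Figure D3:**
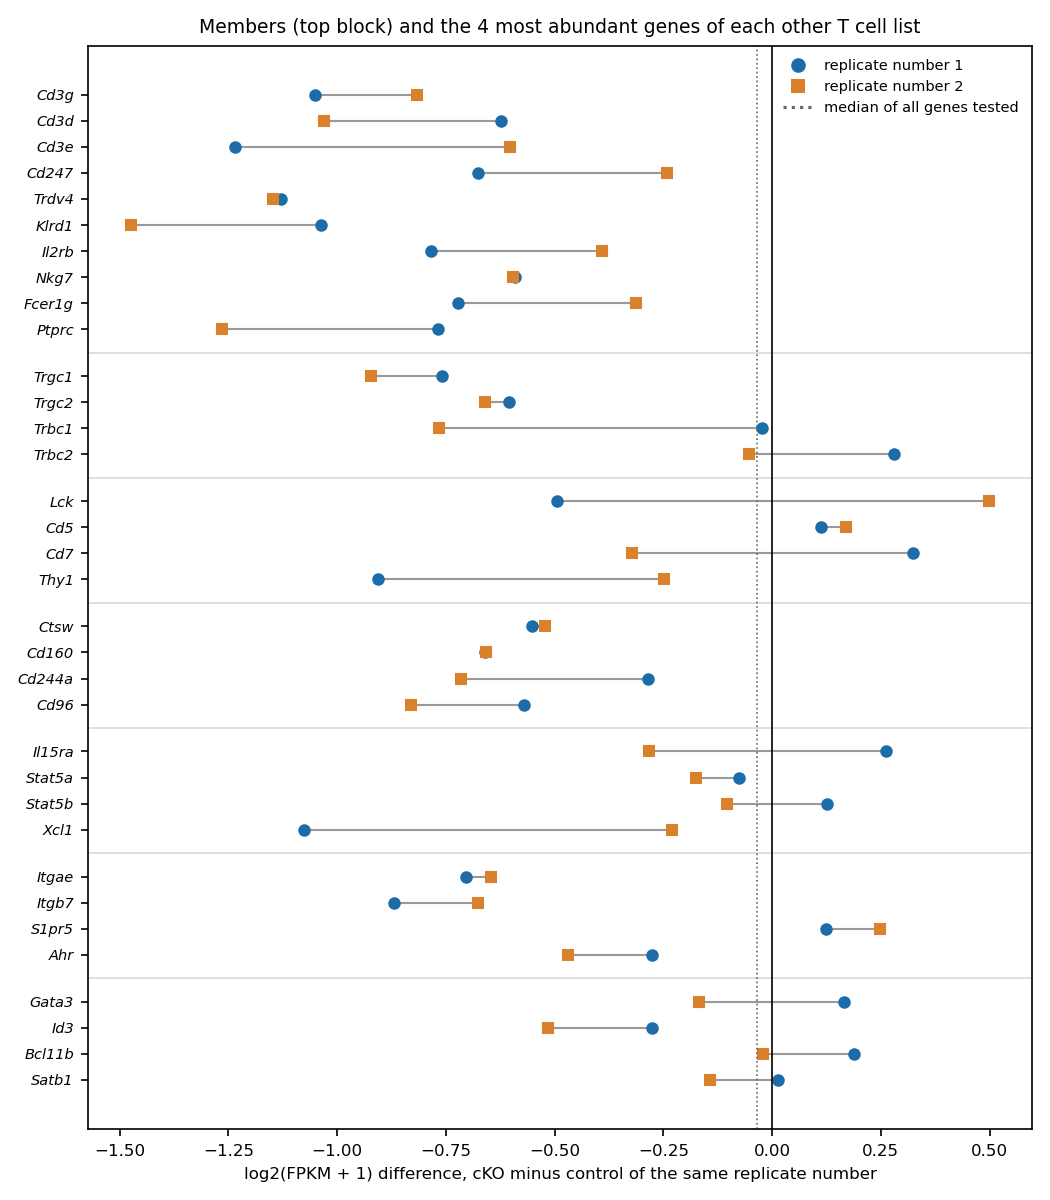
The log2(FPKM + 1) difference, cKO minus control, between libraries of the same replicate number, for the 10 genes (top block) and the 4 most abundant genes of each of 6 other T cell lists; circles are number 1, squares number 2 and the dotted line is the median of all genes tested. All 20 points of the top block lie left of 0, while genes such as Lck, Cd7 and Il15ra have points on both sides.

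Other genes of the same cells, in 6 lists by role that were drawn up with earlier results known, held 117 genes, of which 67 were tested and 6 were listed at 0. Of the 67, 35 had both cKO libraries below both controls (52.2%) and 3 had both above, beside 16.6% and 16.2% of all genes tested, and the median log2 difference was -0.40. The counts of each list below stand against the same 2 shares. At an unadjusted limma p under 0.05, 11 of the 67 were lower, beside 1.68% of all genes tested, and 1 was higher. None passed adjustment (smallest adjusted p = 0.959). Of the 35, 1 reached 1 FPKM in the control libraries only and so passed the filter through them. Of all genes tested, 144 passed through control only and 61 through cKO only.

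Of 14 genes in the receptor segment list 8 were tested, 5 did not overlap and were lower, and the median was -0.64. The 8 include Trat1, which is not a receptor segment. Its log2 difference was -1.02 and its groups overlapped. Trgc1, a gamma chain constant gene, measured 11.3 and 9.05 FPKM in cKO, against 19.9 and 18.03 FPKM in control, a log2 difference of -0.84 (standard error 0.21). Trdc, the delta chain constant gene, measured 1.96 and 2.05 FPKM in cKO, against 3.95 and 4.40 FPKM in control. Trgc2, which is nearly identical to Trgc1 so that fragments may be divided between them, measured 2.85 and 2.77 FPKM in cKO, against 4.85 and 4.96 FPKM in control. These gamma and delta constant genes had separate groups. The beta chain constant genes, also nearly identical copies, are given with the same reserve. Trbc2 measured 11.0 and 12.6 FPKM in cKO, against 8.90 and 13.1 FPKM in control, and overlapped. Trbc1 measured 3.13 and 2.01 FPKM in cKO, against 3.20 and 4.12 FPKM in control. Its groups nearly met but did not overlap, and it was lower in cKO. Beta chain constant RNA was read in every library while Trac was close to 0.

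Of 27 signalling and surface genes 17 were tested, 10 did not overlap and were lower, 1 was higher, and the median was -0.38. Thy1, a surface glycoprotein of mouse T cells, measured 5.76 and 8.07 FPKM in cKO, against 11.7 and 9.78 FPKM in control. Cd5, an inhibitory receptor, measured 4.32 and 4.68 FPKM in cKO, against 3.92 and 4.05 FPKM in control. Cd5 was the higher exception, by a log2 difference of 0.14. Lck, the kinase that phosphorylates the CD3 chains, measured 3.09 and 5.05 FPKM in cKO, against 4.76 and 3.28 FPKM in control, and Cd7 measured 4.37 and 3.90 FPKM in cKO, against 3.29 and 5.13 FPKM in control. Both overlapped.

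Of 25 cytotoxic and natural killer genes 8 were tested, 5 did not overlap and were lower, and the median was -0.56. Ctsw, a protease of cytotoxic lymphocytes, measured 15.7 and 18.1 FPKM in cKO, against 23.5 and 26.4 FPKM in control. Cd96, a receptor for nectin-like ligands, measured 5.42 and 3.53 FPKM in cKO, against 8.54 and 7.06 FPKM in control. Cd160 measured 4.25 and 4.13 FPKM in cKO, against 7.30 and 7.09 FPKM in control. These 3 had separate groups, as did Cd244a, at 5.02 and 3.61 FPKM in cKO and 6.34 and 6.56 FPKM in control.

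Of 18 cytokine and cytokine receptor genes 8 were tested, 3 did not overlap and were lower, 1 was higher, and the median was -0.07. Il15ra, which presents interleukin 15 and is also transcribed in keratinocytes, measured 19.3 and 9.62 FPKM in cKO, against 15.9 and 11.9 FPKM in control. Its groups overlapped. Stat5a measured 9.73 and 10.3 FPKM in cKO, against 10.3 and 11.7 FPKM in control, and Stat5b measured 8.86 and 9.86 FPKM in cKO, against 8.03 and 10.7 FPKM in control. Both encode transcription factors activated through Il2rb, and the groups nearly met for Stat5a and overlapped for Stat5b. Xcl1, a chemokine of lymphocytes, measured 4.75 and 9.67 FPKM in cKO, against 11.1 and 11.5 FPKM in control. Areg, a growth factor that many cells make, was the higher exception, at 2.48 and 2.75 FPKM in cKO and 1.71 and 1.72 FPKM in control.

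Of 16 residency and homing genes 12 were tested, 8 did not overlap and were lower, and the median was -0.47. Itgae, the integrin chain that binds E-cadherin on keratinocytes, measured 6.16 and 6.77 FPKM in cKO, against 10.7 and 11.2 FPKM in control. Itgb7, its partner chain, measured 3.25 and 5.18 FPKM in cKO, against 6.76 and 8.88 FPKM in control. Both chains were lower in both cKO libraries. Ahr, a receptor needed by these cells but also present in keratinocytes, measured 21.2 and 16.3 FPKM in cKO, against 25.8 and 23.0 FPKM in control. S1pr5 measured 8.05 and 6.81 FPKM in cKO, against 7.30 and 5.57 FPKM in control, and overlapped.

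Of 17 transcription factor genes 14 were tested, 4 did not overlap and were lower, 1 was higher, and the median was -0.26. Of the 4 lower ones, 1 passed the filter through the control libraries only. The 4 most abundant are not particular to T cells and overlapped between groups. Bcl11b measured 29.1 and 32.9 FPKM in cKO, against 25.4 and 33.4 FPKM in control. Satb1 measured 26.5 and 27.0 FPKM in cKO, against 26.2 and 30.0 FPKM in control. Gata3 measured 21.8 and 29.2 FPKM in cKO, against 19.4 and 33.0 FPKM in control, and Id3 15.8 and 20.3 FPKM in cKO, against 19.3 and 29.4 FPKM in control.

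**Figure D4:**
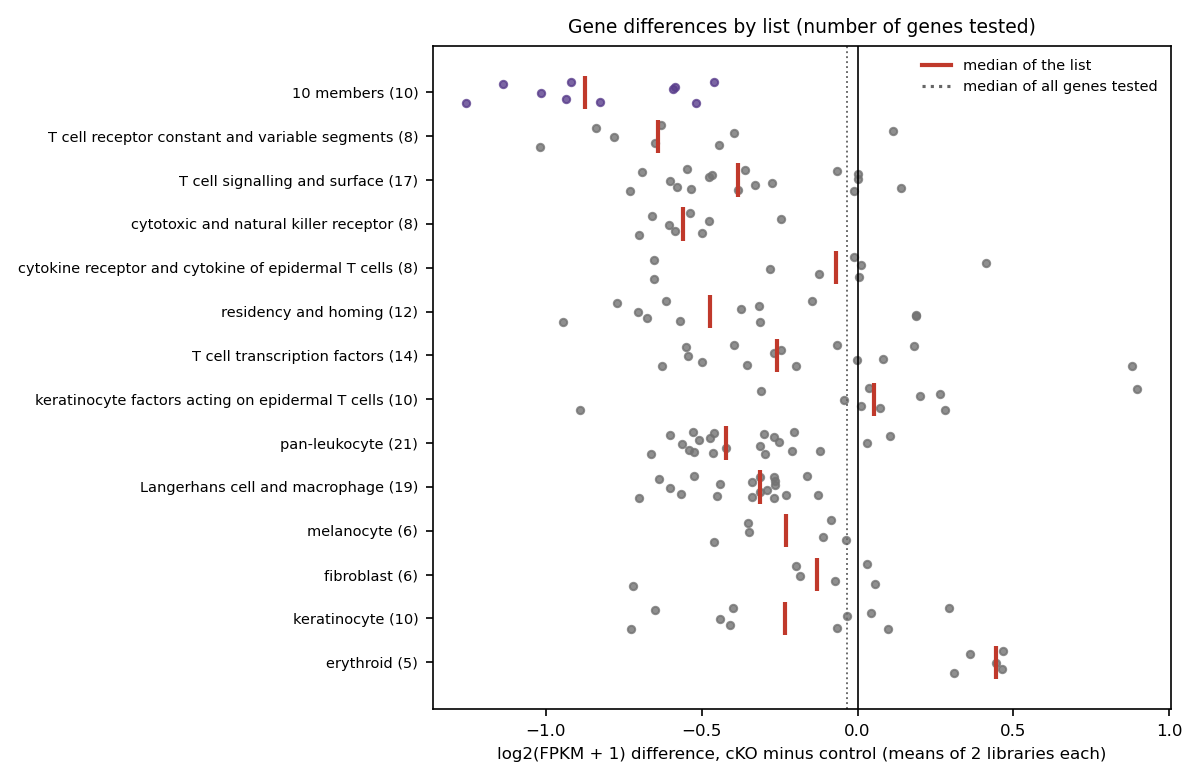
Each point is 1 tested gene at its log2(FPKM + 1) difference, cKO minus control; rows are gene lists with the number of genes tested in brackets, red bars are list medians and the dotted line is the median of all genes tested. The 10 genes of the top row all lie left of 0 with a median of -0.87, and the other T cell lists have medians between -0.64 and -0.07.

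Factors that keratinocytes provide to these cells gave a mixed picture. Of 15 genes 10 were tested, 1 was lower without overlap, and the median was 0.05. That gene was Ccl27a, a skin chemokine for lymphocytes, at 24.7 and 42.0 FPKM in cKO and 52.8 and 69.7 FPKM in control. The 4 most abundant overlapped between groups. Cdh1, the E-cadherin gene, measured 174 and 185 FPKM in cKO, against 177 and 165 FPKM in control. Plxnb2, which encodes a ligand of a T cell surface protein, measured 50.7 and 62.3 FPKM in cKO, against 43.4 and 54.7 FPKM in control. Cxadr, the ligand of the receptor encoded by Jaml, measured 51.1 and 34.2 FPKM in cKO, against 57.0 and 47.6 FPKM in control. H60c, a stress ligand of a receptor these cells carry, measured 54.1 and 41.7 FPKM in cKO, against 53.4 and 40.2 FPKM in control.

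Markers of other leukocytes had medians below that of all genes, and none passed adjustment. Of 21 pan-leukocyte genes, 10 had both cKO libraries below both controls and 0 had both above, with a median of -0.42. Cd52 measured 41.4 and 74.4 FPKM in cKO, against 76.9 and 88.7 FPKM in control, and its groups did not overlap. Tyrobp measured 36.3 and 60.8 FPKM in cKO, against 60.1 and 79.0 FPKM in control, and its groups overlapped. Of 19 Langerhans cell and macrophage genes, 7 did not overlap and were lower, with a median of -0.31. Cd74 measured 114 and 197 FPKM in cKO, against 197 and 263 FPKM in control, and H2-Aa 75.7 and 111 FPKM in cKO, against 125 and 148 FPKM in control. The summed level of that list was 457 and 765 FPKM in cKO, against 737 and 972 FPKM in control, and its defining marker Cd207 lay between 0.62 and 1.93 FPKM in cKO and between 2.09 and 2.18 FPKM in control.

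The part of these other leukocytes in the values of the 10 genes was not tested. Of 8 mast cell genes 2 were tested, Kit at 11.9 and 9.98 FPKM in cKO and 18.03 and 16.02 FPKM in control, and Cma1 at 1.82 and 0.36 FPKM in cKO and 0.59 and 1.31 FPKM in control. Among the untested ones Fcer1a and Ms4a2 were at 0.05 FPKM or below in every library, while Cpa3, Tpsb2 and Mcpt4 reached 1.80, 1.31 and 1.02 FPKM in cKO 1. The summed mast cell list was 18.2 and 11.6 FPKM in cKO, against 20.2 and 19.7 FPKM in control. Most of that sum was Kit in every library, so the sum does not describe the other mast cell genes. Of 6 B cell genes 1 was tested, Ighm, at 4.38 and 4.82 FPKM in cKO and 6.80 and 9.17 FPKM in control. The next of that list, Cd79b, measured 0.35 and 0.85 FPKM in cKO, against 0.25 and 0.72 FPKM in control. None of 8 neutrophil and 5 endothelial genes reached the filter; the most abundant, Ltf and Csf3r, and Pecam1 and Kdr, stayed below 1 FPKM in every library. Of 6 erythroid genes 5 were tested and overlapped, with 1165 and 380.8 FPKM summed in cKO, against 310 and 798.8 FPKM in control. The leading ones were the globin genes Hbb-bs, at 687.9 and 222 FPKM in cKO and 179.7 and 459.2 FPKM in control, and Hba-a1, at 371.2 and 121.3 FPKM in cKO and 102.8 and 264.8 FPKM in control.

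Genes of fibroblasts, melanocytes and keratinocytes gave medians nearer to that of all genes than both leukocyte lists did. Of 6 fibroblast genes 2 were lower without overlap (median -0.13), led by Dcn at 34.0 and 40.3 FPKM in cKO and 55.7 and 68.2 FPKM in control. Col3a1 overlapped, at 33.5 and 31.4 FPKM in cKO and 38.5 and 26.0 FPKM in control. Of 6 melanocyte genes 2 were lower without overlap (median -0.23), with Dct at 174 and 167 FPKM in cKO and 239 and 197 FPKM in control. Pmel overlapped, at 140.4 and 176 FPKM in cKO and 178 and 161 FPKM in control. Of 10 keratinocyte genes 2 were lower and 1 higher without overlap (median -0.23). The log2 differences of this list ranged from -0.728 for Krt15 to 0.295 for Perp, so its median stands for a mixed list. Krt10, the suprabasal keratin and the most abundant of that list, measured 12140 and 6217 FPKM in cKO, against 15340 and 5382 FPKM in control. Flg, the filaggrin gene, measured 3187 and 1822 FPKM in cKO, against 4128 and 2455 FPKM in control, and the basal keratin Krt14 1435 and 2195 FPKM in cKO, against 2176 and 2550 FPKM in control. All 3 overlapped between groups and mark the labelled cell type. Lower without overlap were Krt15, at 330.9 and 417.8 FPKM in cKO and 515 and 738.5 FPKM in control, and Trp63. Trp63 measured 76.28 and 76.76 FPKM in cKO, against 99.59 and 108.9 FPKM in control. Perp was the higher exception, at 2145 and 1701 FPKM in cKO and 1568 and 1546 FPKM in control. The part of these cells in the values of the 10 genes was not tested.

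Among 13535 other genes with a mean of at least 1 FPKM, the 10 closest to the average profile of the members over the 4 libraries were Ska2, Ahcyl2, Kitl, Trdc, Ptprcap, Hist2h2be, Itgae, Ccdc163, Cytip and Serpina3i, by Euclidean distance of log2 values centred on each gene's mean. The distances ran between 0.039 for Ska2 and 0.169 for Serpina3i. For comparison, Cd3g lay at 0.141 and Ptprc, the farthest of the 10, at 1.07. Trdc and Itgae were also in the T cell lists and Cytip in the pan-leukocyte list. The likeness is over only 4 libraries, all of them shared by every gene compared.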

How the data were processed

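RNA-seq of newborn mouse epidermis was compared between 2 cKO and 2 control libraries. The authors deposited 1 table of 110295 transcripts with 1 column per library and no unit in its header. The FPKM unit of the values the authors deposited was inferred: values times transcript length in kilobases summed to between 1015550 and 1021998 per library, and 95.1% to 97% of low values were whole multiples of 1 fragment (tolerance 0.2 fragments). Reads had been processed with fastp, HISAT2 and HTSeq against GRCm38, per the submitters' processing notes. How fragments were divided between transcripts, and whether strand was used, is not given in the sources used here.

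FPKM were summed per symbol, with GENCODE M21 lengths for 98.04% of transcripts, and 162 rows had symbols turned into dates. Genes with at least 1 FPKM in 2 libraries (13817) were fitted with limma 3.58.1 in R 4.3.3 on log2(FPKM + 1) using a mean-variance trend, with no term but genotype, and Benjamini-Hochberg adjustment. A log2 difference on this scale understates the change of low genes. Because the table held normalized values, limma was used in place of a count test.

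The members and lists were chosen with earlier results of these data known. Genes named are the members, Mettl14 and the 4 most abundant of each T cell and keratinocyte factor list. Named too are the most abundant 2 of other lists, genes past the threshold and the 10 nearest profiles. Cd4, Cd8a, Cd207, Cpa3, Tpsb2, Mcpt4, Krt14, Krt15, Trp63, Perp, Trac and Trdc were added after their values were seen. So were Trgv2, Trgv5, Trat1, Ccl27a, Areg, Fcer1a, Ms4a2 and Jaml. All p-values reflect no more than the library-to-library spread, which may be technical. The values of 1 listed gene are not reported here.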

Additional observations from a re-analysis of the deposited data

How the results depend on the processing

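None of the 10 members changed direction under scaling by median ratios, a pseudocount of 0.1, no filter, a filter on all 4 libraries (which removed Klrd1), limma-voom on recovered fragments, coding transcripts only, the replicate block or leaving out any library. The median of the members stayed between -0.96 and -0.83 in the first 7 of these, and between -0.85 and -0.70 as each library was left out. In every member both cKO values lay below both control values. The pseudocount, the filters, the replicate block or a library left out therefore could not change the direction of any member. The genes past the threshold, 0 in the main fit, numbered 9 to 71 as each library was left out. Replicate numbers are not stated to pair samples. With the replicate block, 900 of the 13817 genes tested passed, 274 of them lower. Across genes, which are not independent replicates, the deviations of cKO 1 and control 1 from their group means correlated at 0.722. With 2 libraries per group, the deviations of number 2 mirror those of number 1. With limma-voom the medians were -0.86 for the receptor segment list, -0.64 for signalling genes, -0.74 for residency genes and -0.41 for transcription factors. With a pseudocount of 0.1 the signalling median was -0.63. As each library was left out, the signalling median ranged between -0.44 and -0.34 and that of transcription factors between -0.40 and -0.002. The causes were not tested. Klrd1 rests on the fewest fragments of the 10 in each library, 18 to 86. Klrd1 moved beyond its replicate spread with limma-voom (-1.92) and with a pseudocount of 0.1 (-1.73).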
